A study of Homo sapiens with 6 samples.

Results

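The 56 genes described here encode proteins of the centromere, the kinetochore, the spindle assembly checkpoint, the mitotic spindle, the midzone and the cytokinetic ring. They were taken by symbol from the deposited gene tables, and all 56 were found among 57886 listed genes. The tables hold FPKM values, fragments scaled to transcript length and library size, for MOLP-8 cells, a long-established line from human multiple myeloma, a cancer of plasma cells. A control group of 3 libraries came from cells with a scrambled guide and a LIN28B KO group of 3 libraries from cells with a guide against LIN28B. Both groups carried the lentiCRISPRv2 vector, which delivers Cas9 and the guide together, and both were selected with puromycin at the same concentration. The condition label reads KO while the sample titles read KD, and the labels do not say whether cells were cloned or whether replicate libraries were grown as separate cultures. The p-values thus reflect library-to-library spread alone, and that spread may be technical. LIN28B, the targeted gene, stood at 23.3, 24.3 and 25.5 FPKM in control and 8.41, 8.17 and 5.84 FPKM in KO libraries, so the KO cells kept 30.7% of the control mean.

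At mitosis, each chromosome is held by the spindle through its kinetochore, a layered protein complex built on centromeric chromatin that contains the histone H3 variant CENPA. The inner kinetochore binds this chromatin, the outer kinetochore binds microtubules, and the spindle assembly checkpoint holds back anaphase until every kinetochore is attached. Once the checkpoint is satisfied, separase cleaves cohesin, kinesin motors and the midzone separate the chromatids, and the cytokinetic ring divides the cell. Most of these genes are transcribed late in the cell cycle, in G2 and M phase, and are held down in G0 and G1 by the DREAM complex, which acts through an element called the cell cycle genes homology region (CHR). In bulk RNA, fewer cells in mitosis and less RNA per mitotic cell cannot be told apart.

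Before any mitotic gene was considered, 1 library differed from the rest, LIN28B KO library 3. Its median log2 difference from the control mean was -0.35 over all 15803 genes tested, against -0.01 in each of LIN28B KO libraries 1 and 2. A fit of library weights in limma gave it 0.103 against 1.112 to 2.234 for the others. The KO libraries also had fewer fragment equivalents, estimated from the deposited bounds, at 4808210 to 5596934 against 6310855 to 8368315 in the controls. The 10 plasma cell markers summed to 14259 to 15885 FPKM in the controls and to 11194 to 17062 FPKM in the KO libraries, with the lowest sum in LIN28B KO library 3. Most of each sum was IGJ, the antibody joining chain, at 10951 to 12586 FPKM in the controls and 9025 to 13920 FPKM in the KO libraries. Of the 10, SLAMF7 and TNFRSF17 rose in the 5-library limma fit (log2 fold changes 0.93 and 0.41, adjusted p = 0.0198 and 0.0329) and the other 8 did not pass. Markers of other blood and stromal cells were near 0, with sums of at most 1.55 FPKM for B cell, T and NK cell, monocyte and erythroid lists in the controls and at most 5.13 FPKM for fibroblasts. In LIN28B KO library 3 the B cell markers summed to 4.81 FPKM, the T and NK cell markers to 2.66 FPKM and the fibroblast markers to 10.9 FPKM, while MS4A1, CD3D, NKG7 and HBA1 were listed at 0 in every library. Whether these differences bear on the mitotic genes was not tested. Each result is given for all 6 libraries and for the 5 libraries left without LIN28B KO library 3, the latter over 11308 protein-coding genes.

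Many promoters of these genes hold the CHR, the element named above for this class of genes, so its presence is no independent result. Of the 56 genes, 47 had a promoter of 300 bases (250 before the transcription start and 50 from it) in the RefSeq table of GRCh38.p14, with 54 promoters in all, since some genes have more than 1. A CHR was searched as TTTGAA or TTTAAA on both strands. It lay within 50 bases of the start in 33 of the 54 promoters (61.1%), against 7.62% of all 35114 promoters of the table and 5.06% of the 13546 promoters of tested protein-coding genes. A CCAAT box, searched as CCAAT on both strands, was found anywhere in 72.2% of them, in 34.6% of all promoters and in 35.4% of those of tested protein-coding genes. Both were found in 44.4%, against 3.05% and 2.18%. A common form of the E2F motif, GCGGGAA, searched on both strands, was at 11.1% against 6.55% of all promoters and 9.84% of those of tested protein-coding genes. Counted per gene the order turned for this motif, with 10.6% of the 47 genes and 13.1% of tested protein-coding genes holding it. These matches are descriptions of letters and not evidence of binding. The 8 windows below run from 120 bases before the start to 30 from it, 5′ to 3′ on the strand of the gene, from RefSeq GRCh38.p14. They were chosen after the values had been seen, 6 from genes that hold a CHR near the start and 2, NSL1 and DSN1, from genes that hold none. The 6 are among the genes that fell in the 5-library comparison below, and the 2 are not. This choice does not stand for the rest: 7 of 16 genes without a CHR near the start fell, PSRC1 and HJURP among them, and 13 of 31 with one. Capitals mark the CHR (as searched, or TTCAAA as its reverse) and the CCAAT box (CCAAT or the reverse ATTGG), and in CDCA8 the CHR overlaps a reversed CCAAT box.
PRC1 (chr15:90994506-90994655, minus strand): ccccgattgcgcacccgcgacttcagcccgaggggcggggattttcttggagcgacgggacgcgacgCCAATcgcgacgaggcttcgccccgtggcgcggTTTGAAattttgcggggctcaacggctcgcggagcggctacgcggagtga
ZWINT (chr10:56361230-56361379, minus strand): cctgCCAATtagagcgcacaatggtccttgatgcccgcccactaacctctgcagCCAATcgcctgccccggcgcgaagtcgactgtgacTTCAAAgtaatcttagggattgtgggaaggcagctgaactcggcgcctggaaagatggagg
NUF2 (chr1:163321834-163321983, plus strand): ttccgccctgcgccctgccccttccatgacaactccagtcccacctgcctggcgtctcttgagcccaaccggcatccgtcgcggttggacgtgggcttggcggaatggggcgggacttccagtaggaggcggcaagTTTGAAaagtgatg
CDCA8 (chr1:37692396-37692545, plus strand): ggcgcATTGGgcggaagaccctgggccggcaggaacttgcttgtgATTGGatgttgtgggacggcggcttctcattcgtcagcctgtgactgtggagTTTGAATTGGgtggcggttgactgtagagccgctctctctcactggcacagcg
KIF11 (chr10:92593010-92593159, plus strand): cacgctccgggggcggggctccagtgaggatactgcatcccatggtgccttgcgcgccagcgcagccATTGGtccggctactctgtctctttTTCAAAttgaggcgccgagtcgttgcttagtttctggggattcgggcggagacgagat
NUSAP1 (chr15:41332761-41332910, plus strand): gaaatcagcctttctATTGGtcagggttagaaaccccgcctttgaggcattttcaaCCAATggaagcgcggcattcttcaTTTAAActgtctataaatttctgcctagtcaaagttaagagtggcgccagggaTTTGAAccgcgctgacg
NSL1 (chr1:212791748-212791897, minus strand): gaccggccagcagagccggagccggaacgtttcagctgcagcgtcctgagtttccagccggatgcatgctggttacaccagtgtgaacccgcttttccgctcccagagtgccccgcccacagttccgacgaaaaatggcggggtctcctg
DSN1 (chr20:36773734-36773883, minus strand): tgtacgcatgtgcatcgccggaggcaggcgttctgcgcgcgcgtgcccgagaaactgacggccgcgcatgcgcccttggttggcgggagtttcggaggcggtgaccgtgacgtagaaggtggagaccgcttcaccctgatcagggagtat

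In PRC1, ZWINT, KIF11 and NUSAP1 a CCAAT box lies upstream of the CHR, and in NUF2 the CHR lies just past the start with no CCAAT box in the table's promoter. The plot of match positions shows where in the promoters these matches fall.

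**Figure D1:**
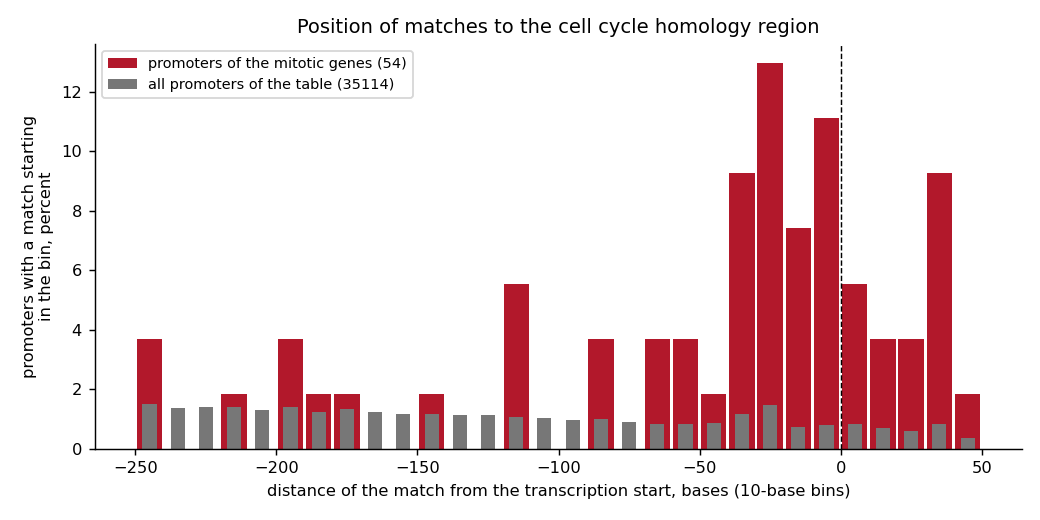
Share of promoters with a CHR match (TTTGAA or TTTAAA, either strand) starting in each 10-base bin, in percent, against the distance from the transcription start in bases, for the 54 promoters of the mitotic genes (wide red bars) and all 35114 promoters of the RefSeq table (narrow grey bars). Matches in the mitotic promoters gather within 50 bases of the dashed line at the start, where 61.1% of promoters hold one, against 7.62% of all promoters.

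All 56 genes had lower mean values in LIN28B KO cells. With all 6 libraries their log2 fold changes ran from -1.03 (PSRC1) to -0.13 (SGOL2), with a median of -0.54 against -0.13 over all 15803 genes tested. Because 0.5 was added to each FPKM before taking logs, the changes of weakly expressed genes are understated. A negative fold change was found for 56 of 56 genes and for 66.5% of all genes tested. After cyclic loess, a scaling that removes trends with expression level, it was found for 55 of 56 and 49.2%. No gene of the 56 passed limma's test over all genes (Benjamini-Hochberg adjusted p of 0.162 or more), where 0.0316% of all genes were called lower and 0.0633% higher. An unadjusted p under 0.05 was found for 45, against 8.73% of all genes that were lower at that level. In 48 of 56 genes (85.7%) every KO library lay below every control, against 20.1% of all genes. In none did every KO library lie above every control, against 7.61% of all genes. The bounds in the tables, which do not measure spread between libraries, were themselves separated in 26 of the 56, against 3.02% of all genes.

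**Figure D2:**
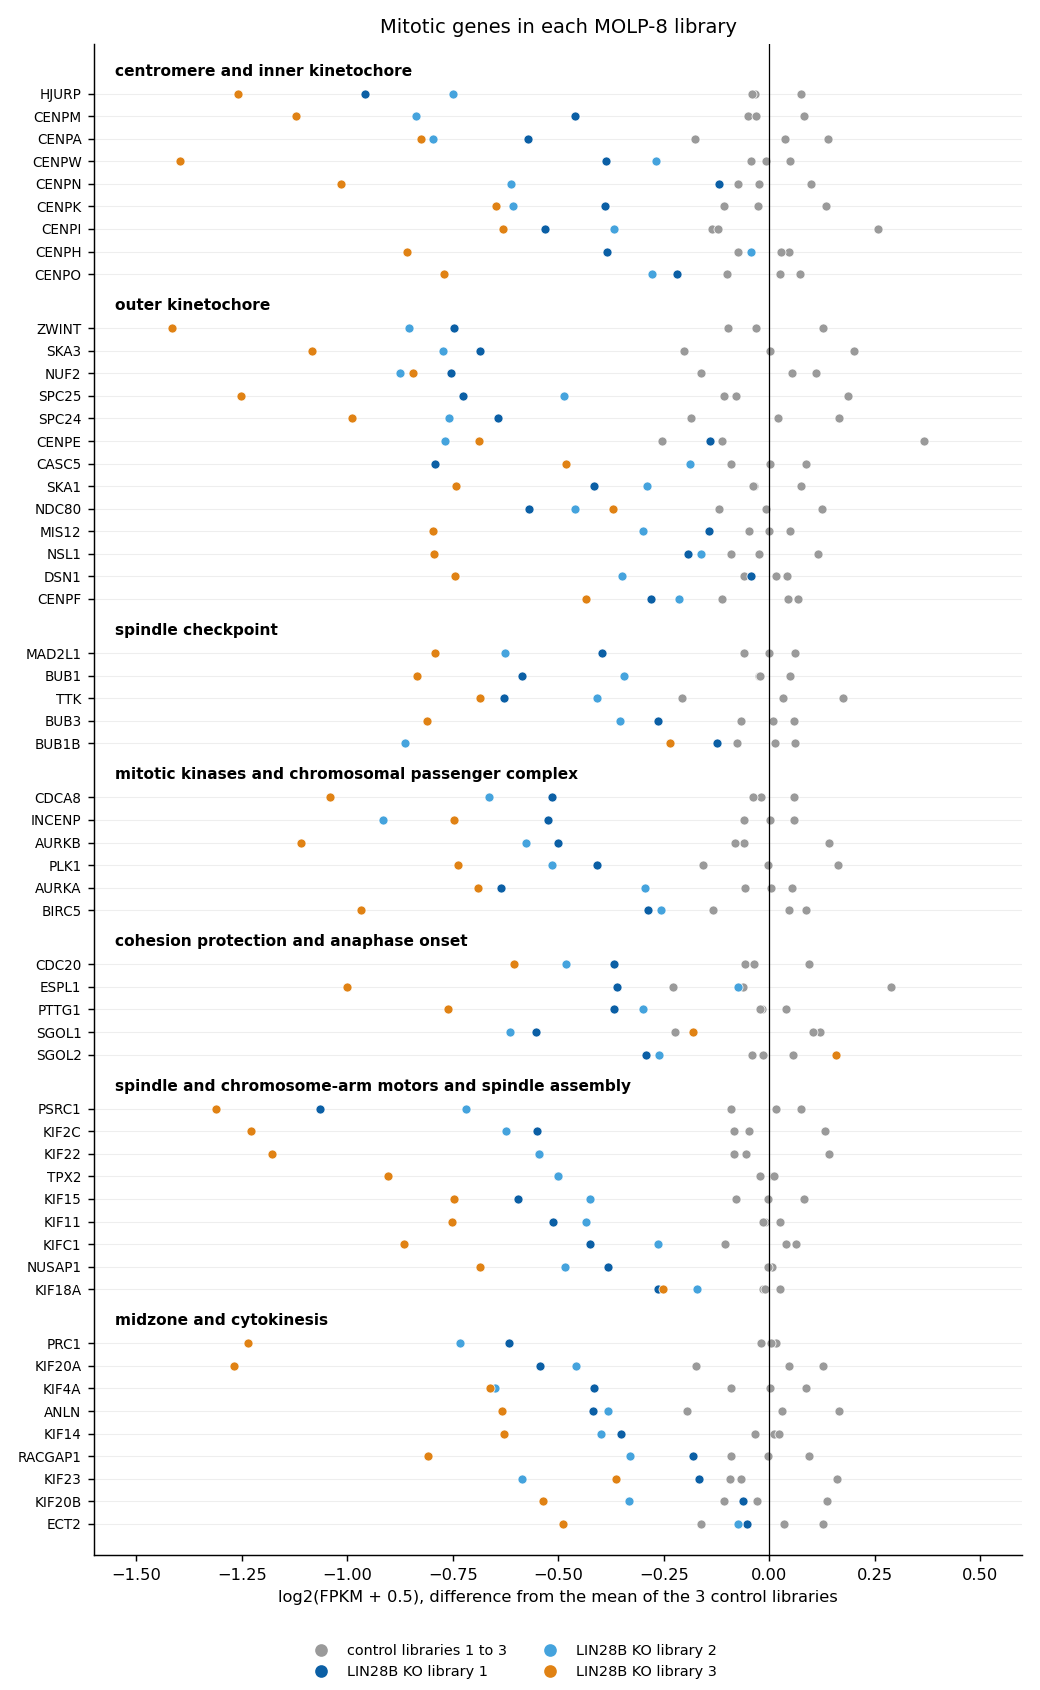
Difference of each library from the mean of the 3 controls, in log2(FPKM + 0.5), for each of the 56 genes, grouped by role and ordered by the mean of the 3 KO libraries. Grey points are control libraries 1 to 3, dark blue, light blue and orange points are LIN28B KO libraries 1, 2 and 3; where KO libraries 1 and 2 coincide (TPX2, KIF22) only one shows. In 48 genes all KO points lie to the left of all control points, and LIN28B KO library 3 is often farthest to the left, except in genes such as SGOL1, SGOL2 and BUB1B.

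In the 5-library comparison 22 of the 56 genes fell and none rose (limma, adjusted p under 0.05 over 11308 genes), where 3.02% of all genes were called lower and 1.08% higher. The median log2 fold change was -0.47 against -0.04 for all genes, with a range from -0.89 (PSRC1) to -0.06 (ECT2), and 3.90% of all genes were at or below that median. An unadjusted p under 0.05 was reached by 48 genes, against 15.4% of all genes. Cyclic loess left 14 genes on the same 5 libraries, all among the 22, where 1.17% of all genes were called lower, with a median of -0.43 against 0.00. With all 6 libraries that scaling gave 6 genes, also among the 22, where 0.342% were called lower and 0.361% higher, and a median of -0.36 against 0.00. Leaving out any 1 of the 5 libraries left limma with 0 calls among all genes tested, the 22 included. In those fits 38 to 44 of the 56 were lower at an unadjusted p under 0.05, against 11.6% to 14.0% of all genes. Testing all 15336 genes that passed the filter, not only protein-coding ones, left HJURP, PRC1 and TPX2, where 0.267% of all genes were called lower. The genes covered a wide range of control levels, 7.08 FPKM (KIF18A) to 178 FPKM (NUSAP1), and none was under the filter on low values. In 16 of them the locus overlaps that of another gene with a control mean of at least 1 FPKM; the use of strand in counting is not given in the sources used here, so these values are uncertain.

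**Figure D3:**
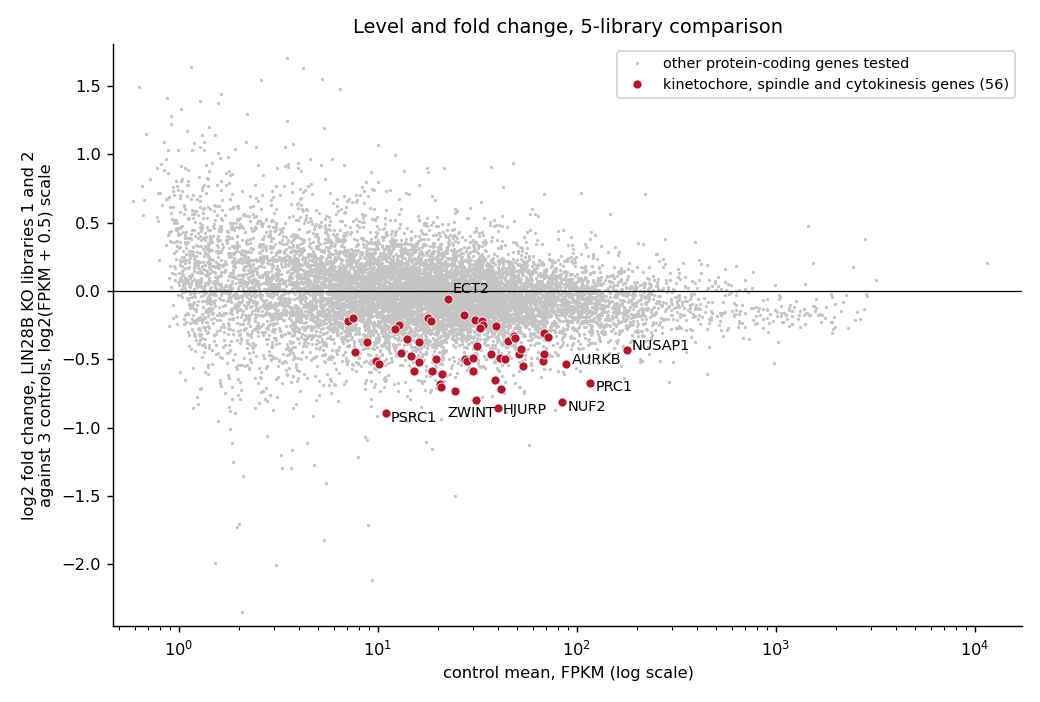
Log2 fold change of LIN28B KO libraries 1 and 2 against the 3 controls, on the log2(FPKM + 0.5) scale, against the mean control FPKM on a log axis, for 11308 protein-coding genes, with the 56 mitotic genes in red and the rest in grey. The red points lie between -0.89 and -0.06 at control levels from 7.08 to 178 FPKM, and all lie below 0.

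The counts by role below stand beside 3.02% of all genes called lower in the 5-library comparison. With all 6 libraries, 20.1% of all genes had every KO library below every control in the deposited FPKM, and 13.3% after cyclic loess. Among 9 genes of the centromere and inner kinetochore, 3 fell in the 5-library comparison, HJURP, CENPA and CENPM, and the group median was -0.45 there and -0.58 with all 6 libraries. HJURP, the chaperone that places CENPA at centromeres (GRCh37 chr2:234742062-234763212, the whole gene, as for the loci below), stood at 42.2, 39.1 and 38.9 FPKM in control and 20.4, 23.6 and 16.4 FPKM in KO libraries. Every KO library was well under every control, and the KO mean was 50.3% of the control mean, 20.1 ± 3.59 against 40.05 ± 1.85 FPKM (SD, n = 3 each). Its log2 fold change was -0.85 (adjusted p = 0.0198, SE 0.09) in the 5-library limma fit and -0.99 (adjusted p = 0.165, SE 0.16) with all 6. CENPA, the centromeric histone H3 variant itself (chr2:26987157-27023935), was measured at 17.9, 22.4 and 20.9 FPKM in control and 13.5, 11.5 and 11.3 FPKM in KO libraries, again without overlap. Its log2 fold change in limma was -0.68 (adjusted p = 0.0382, SE 0.12) with 5 libraries and -0.73 (adjusted p = 0.226, SE 0.15) with all 6. Under cyclic loess with 5 libraries CENPA missed the threshold (adjusted p = 0.0550) while HJURP passed (adjusted p = 0.0220). CENPM, a subunit of the constitutive centromere network, had 40.9, 37.2 and 37.8 FPKM in control and 27.9, 21.4 and 17.5 FPKM in KO libraries and fell in the 5-library fit (log2 fold change -0.65, adjusted p = 0.0386, SE 0.12), a call lost after cyclic loess (adjusted p = 0.0594). Its 3 KO values were spread from 17.5 to 27.9 FPKM but stayed below the controls.

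The other 6 genes of this group did not pass. CENPW, which pairs with CENPT at the centromere, was at 49.9, 46.8 and 47.96 FPKM in control and 36.7, 39.9 and 18.01 FPKM in KO libraries. The last library lay far under the other KO libraries, and the 5-library log2 fold change was -0.33 (adjusted p = 0.0582, SE 0.07). CENPK was at 25.4, 30.2 and 26.9 FPKM in control and 20.8, 17.8 and 17.3 FPKM in KO libraries, just short of the threshold (log2 fold change -0.50, adjusted p = 0.0568, SE 0.11). CENPI, a low gene of the group, was at 9.19, 6.89 and 6.96 FPKM in control and 5.11, 5.79 and 4.74 FPKM in KO libraries. CENPN and CENPO, both network subunits, had 5-library log2 fold changes of -0.37 and -0.25. CENPN differed between KO libraries, at 41.4, 29.3 and 22.03 FPKM, of which only the first was near the lowest control of 42.8 FPKM. CENPH was the one gene of the group whose groups overlapped, at 29.2, 31.8 and 31.4 FPKM in control and 23.5, 29.9 and 16.8 FPKM in KO libraries: LIN28B KO library 2 lay above the lowest control.

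Of 13 outer kinetochore genes, 5 fell in the 5-library comparison: NUF2, ZWINT, SKA3, SPC24 and NDC80. Their median log2 fold change was -0.49 in both comparisons. The NDC80 complex, which makes the end-on contact with microtubules, is a tetramer of NDC80, NUF2, SPC24 and SPC25. NUF2 (chr1:163236366-163325554) stood at 75.1, 90.9 and 87.3 FPKM in control and 49.7, 45.6 and 46.6 FPKM in KO libraries, so KO cells held 56.02% of the control mean. In the deposited FPKM all 3 KO libraries lay close together and far under the controls, and LIN28B KO library 3 lay between the others. In limma NUF2 was -0.83 (adjusted p = 0.162, SE 0.13) on the log2 scale with all 6 libraries, the smallest adjusted p among the 56 genes there, and -0.82 (adjusted p = 0.0226, SE 0.10) with 5. After cyclic loess its log2 differences from the control mean were -0.69, -0.81 and -0.32 in LIN28B KO libraries 1 to 3. After that scaling NUF2 passed limma's test with 5 libraries (adjusted p = 0.0257) and not with all 6 (adjusted p = 0.126). SPC24 was at 21.02, 18.1 and 23.3 FPKM in control and 13.1, 12.03 and 10.2 FPKM in KO libraries (log2 fold change -0.70, adjusted p = 0.0349, SE 0.12 with 5 libraries). NDC80 was at 30.4, 27.7 and 25.6 FPKM in control and 18.6, 20.1 and 21.4 FPKM in KO libraries (log2 fold change -0.51, adjusted p = 0.0408, SE 0.10). The call of NDC80 was lost after cyclic loess (adjusted p = 0.0660). In the deposited FPKM the groups did not overlap for either gene. After cyclic loess LIN28B KO library 3 stood at a log2 difference of 0.07 for NDC80, among the controls at -0.12 to 0.12. For SPC24 it stood at -0.58, below all controls. With all 6 libraries and that scaling neither passed limma's test (adjusted p = 0.401 for NDC80 and 0.0703 for SPC24). SPC25, the fourth subunit, was at 19.9, 19.5 and 23.9 FPKM in control and 12.5, 14.8 and 8.52 FPKM in KO libraries and missed the threshold (log2 fold change -0.61, adjusted p = 0.0510, SE 0.13).

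The level of NUF2, 84.4 FPKM in the controls, was above those of its partners NDC80, SPC25 and SPC24, at 27.9, 21.1 and 20.8 FPKM. The complex holds the 4 proteins in equal number, but RNA levels do not give protein numbers. NDC80 was above both SPC25 and SPC24 in every control library, while SPC25 and SPC24 overlapped. In the KO libraries NUF2 was still highest, at 47.3 FPKM, against 20.02, 11.96 and 11.8 FPKM. NUF2 overlaps the noncoding model RP11-267N12.3, at 11.97 FPKM in the controls, and the strand setting of the counting is not given, so its level is uncertain.

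ZWINT, which links the KNL1 branch of the kinetochore to the RZZ complex of checkpoint proteins (chr10:58116989-58121036), had 28.99, 30.4 and 33.95 FPKM in control and 18.3, 16.9 and 11.3 FPKM in KO libraries. Its KO mean was 49.9% of control, and the log2 fold change was -0.80 (adjusted p = 0.0226, SE 0.09) with 5 libraries and -1.01 (adjusted p = 0.226, SE 0.20) with all 6. SKA3, of the complex that tracks microtubule ends, was at 24.1, 20.9 and 27.8 FPKM in control and 14.8, 13.9 and 11.1 FPKM in KO libraries and also fell (log2 fold change -0.73, adjusted p = 0.0357, SE 0.13 with 5 libraries). Its partner SKA1 was at 13.7, 13.7 and 14.8 FPKM in control and 10.4, 11.4 and 8.20 FPKM in KO libraries and did not pass (log2 fold change -0.35, adjusted p = 0.0929, SE 0.10). The groups of both SKA genes were apart. CASC5, the gene of KNL1, was at 28.1 to 31.9 FPKM in control and 17.1, 26.2 and 21.3 FPKM in KO libraries. LIN28B KO libraries 1 and 2 differed more from each other than the controls did, and the fold change of -0.49 had an SE of 0.17.

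The MIS12 complex, the bridge between inner and outer kinetochore, had the smallest 5-library differences of this group. MIS12, NSL1 and DSN1 had 5-library log2 fold changes of -0.22, -0.18 and -0.20 (SE 0.08, 0.09 and 0.11), none past the threshold. DSN1 was at 18.5, 18.1 and 17.2 FPKM in control and 17.4, 13.9 and 10.5 FPKM in KO libraries, where LIN28B KO library 1 lay among the controls. MIS12 and NSL1 reached 18.98 and 15.4 FPKM in LIN28B KO library 3, against 27.01 to 30.2 and 23.6 to 24.1 FPKM in the other KO libraries. CENPF, a large coiled-coil protein of the corona, was at 34.9, 35.5 and 31.2 FPKM in control and 27.8, 29.1 and 24.9 FPKM in KO libraries. Its log2 fold change with all 6, -0.31, was the highest of the group. CENPE, the kinetochore kinesin that carries chromosomes to the equator, was at 16.7, 11.8 and 10.7 FPKM in control and 11.6, 7.32 and 7.76 FPKM in KO libraries. These CENPE values overlap between groups. Their deposited bounds were wide, at 11.1 to 48.1 fragment equivalents per library, the fewest of the 56 genes.

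In the spindle checkpoint, 2 of 5 genes fell in the 5-library comparison, MAD2L1 and BUB1, with a group median of -0.49. All 5 had every KO library below every control in the deposited FPKM, against 20.1% of all genes. After cyclic loess LIN28B KO library 3 lay below all controls in 4 of the 5, against 36.5% of all genes. The exception was BUB1B, whose log2 difference in that library was then 0.24. MAD2L1 encodes MAD2, which binds and inhibits CDC20. It stood at 64.6, 67.3 and 70.3 FPKM in control and 51.1, 43.5 and 38.7 FPKM in KO libraries. Its log2 change came to -0.51 (adjusted p = 0.0340, SE 0.09) with 5 libraries and -0.61 (adjusted p = 0.253, SE 0.14) with all 6. BUB1, the kinase that recruits checkpoint proteins to the kinetochore, was at 52.97, 50.3 and 50.4 FPKM in control and 33.95, 40.2 and 28.5 FPKM in KO libraries, with a log2 fold change of -0.47 (adjusted p = 0.0411, SE 0.09) with 5 libraries. Both missed the threshold after cyclic loess (adjusted p = 0.0586 and 0.0702). TTK, the MPS1 kinase at the head of the checkpoint, was at 18.2, 13.9 and 16.5 FPKM in control and 10.2, 11.99 and 9.82 FPKM in KO libraries and did not pass (log2 fold change -0.52, adjusted p = 0.0884, SE 0.14). BUB3, which binds the kinase BUB1 and whose range of levels overlaps that of MAD2L1, was at 70.8, 68.4 and 64.9 FPKM in control and 56.5, 53.1 and 38.5 FPKM in KO libraries with a log2 fold change of -0.31 (adjusted p = 0.0596, SE 0.07). BUB1B, the gene of BUBR1, had 41.2, 38.7 and 42.7 FPKM in control and 37.5, 22.2 and 34.6 FPKM in KO libraries. Here LIN28B KO library 2 alone was far down and libraries 1 and 3 lay just under the controls. The 5-library log2 fold change of -0.49 carried an SE of 0.20.

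The mitotic kinases and the chromosomal passenger complex held 3 genes that fell of 6, all of the passenger complex, in which the kinase AURKB is anchored by INCENP, BIRC5 (survivin) and CDCA8 (borealin) and corrects faulty attachments. The group median was -0.50 with 5 libraries and -0.64 with all 6. All 6 genes had every KO library below every control in the deposited FPKM, against 20.1% of all genes. After cyclic loess LIN28B KO library 3 still lay below all controls in all 6, against 36.5% of all genes. AURKB (chr17:8108056-8113918) was at 97.4, 84.8 and 83.5 FPKM in control and 62.3, 59.1 and 40.7 FPKM in KO libraries; LIN28B KO library 3 was lowest by a wide margin. Its log2 fold change was -0.54 (adjusted p = 0.0308, SE 0.08) with 5 libraries and -0.73 (adjusted p = 0.265, SE 0.19) with all 6. INCENP, the scaffold, stood at 43.2, 39.7 and 41.4 FPKM in control and 28.7, 21.7 and 24.5 FPKM in KO libraries. The KO mean was 60.2% of control, and the log2 fold change was -0.72 (adjusted p = 0.0337, SE 0.12) with 5 libraries. CDCA8 was at 19.6, 18.5 and 18.2 FPKM in control and 12.98, 11.7 and 8.86 FPKM in KO libraries (log2 fold change -0.59, adjusted p = 0.0301, SE 0.09). With cyclic loess and the same 5 libraries all 3 passed too (adjusted p = 0.0474, 0.0482 and 0.0403).

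BIRC5, the fourth passenger subunit, was at 33.6, 34.5 and 29.6 FPKM in control and 26.5, 27.1 and 16.4 FPKM in KO libraries and did not pass (log2 fold change -0.27, adjusted p = 0.136, SE 0.09). Its first 2 KO libraries lay a little under the lowest control and the last far below. The gene overlaps AC087645.1, at 30.4 FPKM in the controls, and its value is uncertain without strand. Control levels in the complex ran from 88.6 FPKM for AURKB over 41.5 for INCENP and 32.6 for BIRC5 to 18.8 FPKM for CDCA8, an order in which no neighbours overlapped in the controls. PLK1, the kinase of mitotic entry and attachment, was at 76.4, 61.1 and 68.05 FPKM in control and 51.3, 47.6 and 40.7 FPKM in KO libraries (log2 fold change -0.46, adjusted p = 0.0582, SE 0.10). AURKA, the kinase of the spindle poles, was at 36.9, 38.2 and 35.3 FPKM in control and 23.5, 29.9 and 22.6 FPKM in KO libraries (log2 fold change -0.47, adjusted p = 0.0707, SE 0.11). The groups were apart in both kinases, yet neither passed.

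Genes of cohesion protection and anaphase onset had the 5-library median closest to 0 among the roles, -0.33, against -0.48 with all 6 libraries, and 2 of 5 fell. CDC20, which activates the anaphase-promoting complex, stood at 50.5, 51.2 and 56.1 FPKM in control and 40.6, 37.5 and 34.4 FPKM in KO libraries, without overlap, and fell in the 5-library comparison (log2 fold change -0.42, adjusted p = 0.0386, SE 0.08). PTTG1, securin, the inhibitor of separase, was at 70.96, 70.8 and 73.8 FPKM in control and 55.5, 58.2 and 42.1 FPKM in KO libraries and also fell (log2 fold change -0.33, adjusted p = 0.0384, SE 0.06). Its copies PTTG2 and PTTG3P were listed at 0 in every library. Both calls were lost after cyclic loess (adjusted p = 0.0701 and 0.0816). ESPL1, separase, was at 17.5, 22.4 and 15.5 FPKM in control and 14.1, 17.3 and 8.88 FPKM in KO libraries, where LIN28B KO library 2 lay between the controls, and its log2 fold change was -0.22 (adjusted p = 0.493, SE 0.17).

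SGOL1 and SGOL2 encode the shugoshins that shield centromeric cohesin. SGOL1 was at 16.5, 12.9 and 16.3 FPKM in control and 10.1, 9.71 and 13.3 FPKM in KO libraries. SGOL2 was at 12.01, 12.6 and 11.8 FPKM in control and 9.82, 10.04 and 13.6 FPKM in KO libraries. In both, LIN28B KO libraries 1 and 2 lay under all controls and library 3 above the lowest control, for SGOL2 above all 3. The 5-library log2 fold changes were -0.58 (adjusted p = 0.0582, SE 0.13) for SGOL1 and -0.28 (adjusted p = 0.136, SE 0.09) for SGOL2, while with all 6 libraries they were -0.45 and -0.13. After cyclic loess the all-6 value of SGOL2 was 0.01 (SE 0.23), the only positive one among the 56 genes. SGOL1 overlaps SGOL1-AS1, at 8.617 FPKM in the controls.

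Spindle motors and assembly factors had the most calls, 6 of 9 genes with 5 libraries (TPX2, NUSAP1, PSRC1, KIF2C, KIF22 and KIF11), against 3.02% of all genes. All 9 had every KO library below every control in the deposited FPKM, against 20.1% of all genes. After cyclic loess LIN28B KO library 3 lay below all controls in 8 of the 9, against 36.5% of all genes. The exception was KIF18A, whose log2 difference in that library was then 0.04. The group medians as deposited were -0.50 with 5 libraries and -0.59 with all 6. PSRC1, a microtubule-associated protein that regulates spindle dynamics (chr1:109822178-109825808), stood at 11.6, 10.2 and 11.1 FPKM in control and 4.97, 6.45 and 4.11 FPKM in KO libraries. Its KO mean was 47.3% of control, the lowest share among the 56 genes, though its deposited bounds were wide (34.3 fragment equivalents at the least). The log2 fold change was -0.89 (adjusted p = 0.0292, SE 0.13) with 5 libraries and -1.03 (adjusted p = 0.203, SE 0.18) with all 6. TPX2, the activator of AURKA on spindle microtubules (chr20:30327074-30389608), was at 43.7, 42.8 and 43.7 FPKM in control and 30.5, 30.5 and 22.9 FPKM in KO libraries. The 3 controls of TPX2 were almost equal, and so were the first 2 KO libraries. It fell with 5 libraries (log2 fold change -0.50, adjusted p = 0.0249, SE 0.06) and passed after cyclic loess with all 6 (adjusted p = 0.0375).

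NUSAP1, a spindle-bundling protein and the most abundant of the 56, was at 177, 178 and 177 FPKM in control and 136, 127 and 110.2 FPKM in KO libraries. The controls were almost equal and every KO library lay far under them. It fell with 5 libraries (log2 fold change -0.43, adjusted p = 0.0247, SE 0.05), while its log2 difference in LIN28B KO library 3 went from -0.69 to -0.10 after cyclic loess. KIF11, the Eg5 motor that pushes the spindle poles apart, was at 14.5, 14.5 and 14.9 FPKM in control and 10.1, 10.7 and 8.49 FPKM in KO libraries (log2 fold change -0.47, adjusted p = 0.0384, SE 0.09). Its call was lost after cyclic loess (adjusted p = 0.0556). KIF2C, the MCAK depolymerase, and KIF22, the chromokinesin of the chromosome arms, fell by 0.59 and 0.55 on the log2 scale with 5 libraries (adjusted p = 0.0312 and 0.0313). KIF2C was at 28.1, 28.8 and 32.7 FPKM in control and 20.2, 19.2 and 12.4 FPKM in KO libraries. KIF22 was at 50.5, 51.5 and 59.1 FPKM in control and 36.5, 36.5 and 23.4 FPKM in KO libraries. In both, the first 2 KO libraries were close to each other and LIN28B KO library 3, which that fit leaves out, was far lower.

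Among the 3 motors that did not pass, KIF15, which can stand in for KIF11, missed the threshold narrowly (log2 fold change -0.51, adjusted p = 0.0562, SE 0.11). It was at 9.80, 10.4 and 9.27 FPKM in control and 6.33, 7.18 and 5.65 FPKM in KO libraries, with no overlap. KIFC1, a minus-end motor that clusters centrosomes, had a log2 fold change of -0.34 (adjusted p = 0.0783, SE 0.09) with 5 libraries. KIF18A, which dampens chromosome movements, was the lowest-expressed of the 56 and had the smallest difference of this group, at 7.21, 7.004 and 7.03 FPKM in control and 5.81, 6.23 and 5.87 FPKM in KO libraries. Its KO values were all just under its controls (log2 fold change -0.22, adjusted p = 0.266, SE 0.10).

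In the midzone and cytokinesis group 1 of 9 genes fell, PRC1, and the median was -0.38 with 5 libraries and -0.46 with all 6. PRC1 bundles the antiparallel microtubules of the midzone (chr15:91509270-91538859). It stood at 115, 118 and 117 FPKM in control and 76.03, 70.05 and 49.3 FPKM in KO libraries, and the means were 117 ± 1.46 and 65.1 ± 14.01 FPKM (SD, n = 3 each). Controls were nearly equal, every KO library lay far below them, and LIN28B KO library 3 was lowest. PRC1 had the smallest adjusted p of the 56 genes with 5 libraries (log2 fold change -0.68, adjusted p = 0.0142, SE 0.06). It was also called after cyclic loess with 5 (adjusted p = 0.0217) and with 6 libraries (adjusted p = 0.0155). With all 6 as deposited it did not pass (log2 fold change -0.86, adjusted p = 0.226, SE 0.18). It overlaps PRC1-AS1, at 24.2 FPKM in the controls and 15.12 FPKM in KO, so the share of reads from each is uncertain.

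KIF4A, the kinesin that sets midzone length with PRC1, was at 10.8, 10.2 and 9.50 FPKM in control and 7.49, 6.29 and 6.23 FPKM in KO libraries, and its near-copy KIF4B never exceeded 0.101 FPKM. KIF14, which brings citron kinase to the midbody, was at 8.59, 8.88 and 8.95 FPKM in control and 6.80, 6.56 and 5.52 FPKM in KO libraries. Both had separate groups and did not pass, with 5-library log2 fold changes of -0.53 (adjusted p = 0.0596, SE 0.12) and -0.38 (adjusted p = 0.0855, SE 0.10). KIF20A, the kinesin that carries the passenger complex to the midzone, had 21.4, 17.3 and 20.3 FPKM in control and 13.3, 14.1 and 7.84 FPKM in KO libraries, with the last library well under the rest (log2 fold change -0.50, adjusted p = 0.0596, SE 0.11).

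The centralspindlin pair KIF23 and RACGAP1, which bind the RhoA activator ECT2 at the midzone, had 5-library log2 fold changes of -0.38 and -0.26 (SE 0.15 and 0.09), and the ring scaffold ANLN had -0.40 (SE 0.11). ECT2 itself was at 24.6, 19.997 and 22.98 FPKM in control and 21.6, 21.3 and 15.8 FPKM in KO libraries: the first 2 KO libraries lay among the controls and only LIN28B KO library 3 was below. Its fold change, -0.06 (adjusted p = 0.765, SE 0.10), was the highest of the 56. KIF20B, a kinesin of late cytokinesis, overlapped as well: LIN28B KO library 1, at 7.14 FPKM, lay among the controls at 6.91 to 8.28 FPKM (log2 fold change -0.20, adjusted p = 0.434, SE 0.13).

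The 8 genes whose groups overlapped were thus spread over 4 roles: CENPH; DSN1 and CENPE; SGOL1, SGOL2 and ESPL1; KIF20B and ECT2. For SGOL1 and SGOL2 only LIN28B KO library 3 overlapped the controls, and without it 50 of the 56 genes were separate, against 26.4% of all genes.

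Read library by library, the genes as a set stood at a median log2 difference from the control mean of -0.42, -0.46 and -0.78 in LIN28B KO libraries 1 to 3, and at 0.04, -0.02 and -0.01 in the controls. The controls thus differed from each other by far less than any KO library differed from them. LIN28B KO library 3 was lowest, but all genes tested were lower in it, at -0.35, and so were 7791 protein-coding genes in the same range of control levels, at -0.47, where libraries 1 and 2 had -0.05 and -0.06. After cyclic loess the medians of the mitotic genes were -0.38, -0.42 and -0.34, so that library 3 no longer stood below the other KO libraries. It lay below all controls for 54 genes before that scaling (65.4% of all genes) and for 46 after it (36.5% of all genes). The summed FPKM of the 56 genes were 2044, 2002 and 2012 in the controls and 1481, 1427 and 1127 in the KO libraries.

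**Figure D4:**
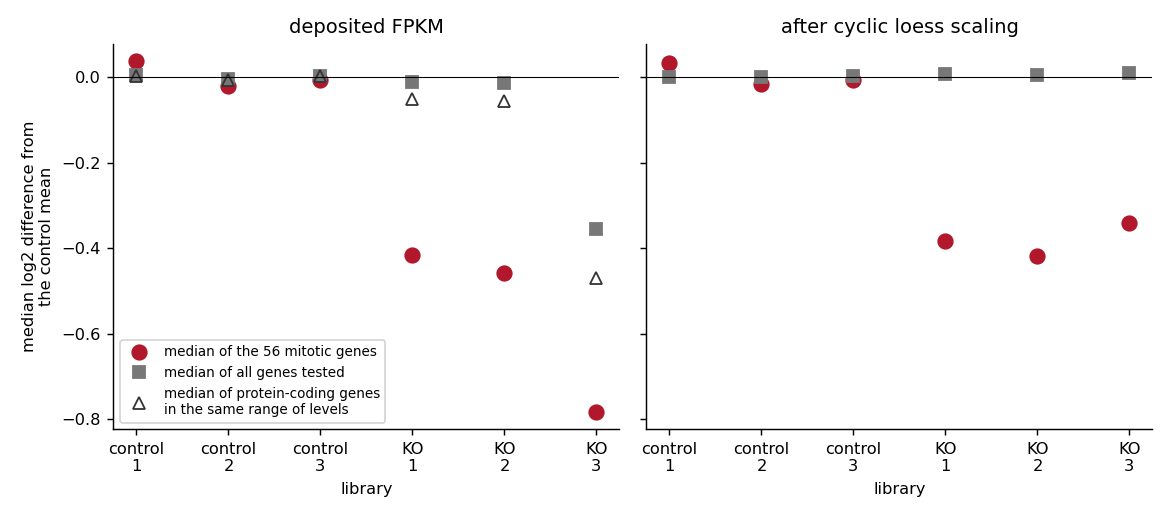
Median log2 difference from the control mean in each of the 6 libraries, for the 56 mitotic genes (red circles), all genes tested (grey squares) and, on the left, protein-coding genes in the same range of control levels (open triangles), for the deposited FPKM (left) and after cyclic loess scaling (right). On the left the red circles of the KO libraries are at -0.42, -0.46 and -0.78; on the right they are at -0.38, -0.42 and -0.34 while all genes are near 0.

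Among the 56 genes the Spearman rho between control mean and 5-library fold change was -0.14, a description across genes that share the same libraries. The 31 genes with a CHR within 50 bases of a start had a median log2 fold change of -0.47 with 13 that fell, and the 16 genes without one had -0.46 with 7 that fell. The latter included HJURP, whose match lies farther upstream, PSRC1, SPC24 and AURKB.

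Other genes of the same machinery, 102 in 5 lists of factors not among the 56, had smaller differences as lists. The 56 and these lists were chosen with earlier results of these data known, so the contrast may follow from the choice. In the 5-library comparison 12 of the 101 other genes tested fell and none rose (11.9%, against 3.02% of all genes), with a median of -0.12. After cyclic loess 5 fell, where 1.17% of all genes were called lower. With all 6 libraries none passed in limma (28 had an unadjusted p under 0.05 and were lower, against 8.73% of all genes), and every KO library was below every control in 47 of 102 (46.1%, against 20.1%). Of 22 other centromere and kinetochore genes, 2 fell, MIS18A and CENPU, with a list median of -0.19. MIS18A, which licenses CENPA loading, was at 19.1, 21.1 and 20.9 FPKM in control and 14.7, 14.9 and 10.7 FPKM in KO libraries (log2 fold change -0.45, adjusted p = 0.0414, SE 0.09). CENPU, of the inner kinetochore, was at 40.9, 36.4 and 43.6 FPKM in control and 29.1, 29.6 and 23.2 FPKM in KO libraries (log2 fold change -0.45, adjusted p = 0.0493, SE 0.09). Of 29 other spindle and cytokinesis genes 5 fell, KIF18B, GTSE1, DLGAP5, SPAG5 and CEP55, with a list median of -0.13. KIF18B, a microtubule-end kinesin, had 21.6, 22.4 and 21.95 FPKM in control and 14.8, 13.4 and 11.1 FPKM in KO libraries (log2 fold change -0.62, adjusted p = 0.0266, SE 0.09). GTSE1, a regulator of KIF2C, had 19.4, 19.5 and 19.5 FPKM in control and 13.99, 13.5 and 10.2 FPKM in KO libraries (log2 fold change -0.48, adjusted p = 0.0329, SE 0.08). Both were separate between groups.

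The augmin and gamma-tubulin ring genes, which nucleate spindle microtubules, had a median of -0.14, and 1 of 18 fell, MZT2A (log2 fold change -0.34, adjusted p = 0.0378, SE 0.06), which has a near-identical copy, MZT2B, and is uncertain. Cohesin and its regulators had a median of -0.05. There 1 of 14 fell, CDCA5 (sororin, which locks cohesin on replicated DNA), at 63.7, 57.3 and 56.6 FPKM in control and 38.8, 39.9 and 25.7 FPKM in KO libraries (log2 fold change -0.58, adjusted p = 0.0249, SE 0.08). The anaphase-promoting complex and its partners had a median of -0.08 and 3 of 18 fell: UBE2C, UBE2S and FBXO5. UBE2C, the ubiquitin-conjugating enzyme that starts chains, was at 74.6, 83.4 and 82.2 FPKM in control and 56.3, 50.01 and 35.9 FPKM in KO libraries (log2 fold change -0.59, adjusted p = 0.0271, SE 0.08). FBXO5, the inhibitor EMI1, was at 25.6, 24.2 and 25.1 FPKM in control and 16.5, 16.1 and 14.3 FPKM in KO libraries (log2 fold change -0.60, adjusted p = 0.0249, SE 0.08). UBE2S extends the chains. The plot by role sets these lists beside the 56 genes.

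**Figure D5:**
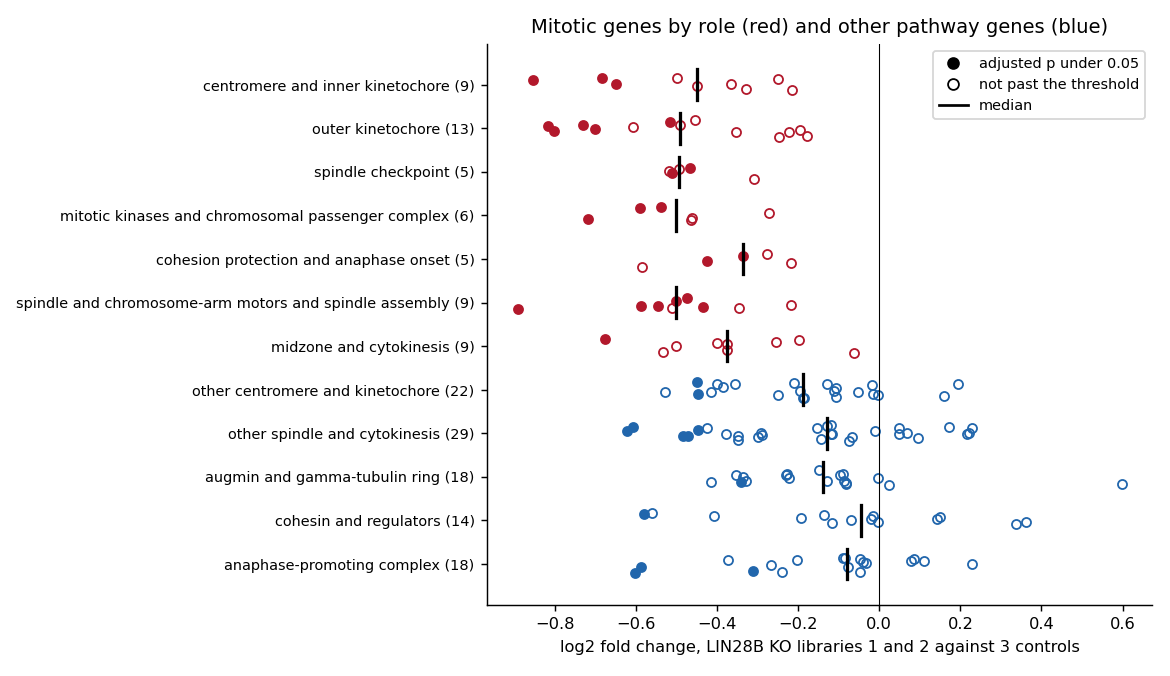
Log2 fold change of LIN28B KO libraries 1 and 2 against the 3 controls, on the log2(FPKM + 0.5) scale, for each gene of the 7 roles (red) and of the 5 lists of other pathway genes (blue), with the number of genes tested in brackets. Filled points passed limma's test (adjusted p under 0.05), open points did not, and bars are medians. Medians of the roles run from -0.50 to -0.33 and those of the other lists from -0.19 to -0.05.

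LIN28B blocks maturation of the let-7 microRNAs, so sites for these in the 3′ UTRs of the 56 genes were counted. The mature sequence (RefSeq, GRCh38.p14) of the family's best known member is shown with its seed, bases 2 to 8, in capitals; the 8 family members found in the table, let-7a to let-7g and let-7i, share that seed.
hsa-let-7a-5p: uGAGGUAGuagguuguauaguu
A site was a match to the reverse complement of the seed (CTACCTC) or of its first 6 bases followed by A (TACCTCA), in the longest 3′ UTR per gene in GENCODE 29. Such sites were present in 5 of the 56 genes (8.93%) and in 2017 of 11188 tested protein-coding genes (18.0%), with median 3′ UTR lengths of 719.5 and 1368 bases. Fragments of 30 bases around the sites are shown with the site in capitals.
AURKB: ctgttcccttatctgttttCTACCTCctcc
CDCA8: acttccatgtcttgctcttCTACCTCccta
CENPK: taaaacatttaatgtacctTACCTCAtgca
ESPL1: tagaagcctcataactgttCTACCTCcaag
MAD2L1: ctttctagaccttgaggctTACCTCAggag
Of these 5 genes AURKB, CDCA8 and MAD2L1 fell in the 5-library comparison, where 22 of all 56 fell and 3.02% of all genes were called lower. Their log2 fold changes were -0.54, -0.59 and -0.51, and CENPK (-0.50) and ESPL1 (-0.22) did not pass. The genes with the largest falls, PSRC1, HJURP, NUF2 and ZWINT, held no such site, like most of the 56. Whether let-7 acts on any of these genes was not tested.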

How the data were processed

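RNA was sequenced from 3 control and 3 LIN28B KO libraries of MOLP-8 cells, grouped by the condition label. The deposited tables hold FPKM, per the file headers, with a lower and an upper bound, made by the authors for 57886 genes in 58000 rows; the build GRCh37 and the tools cutadapt, TopHat2 and HTSeq are named, without versions or roles, per the submitters' processing notes. Annotation and strand setting: not given in the sources used here. Rows of 108 genes listed more than once were summed, and 25 genes with a failed estimate were left out. Loci are those of the files with 1-based starts.

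The test was limma 3.58.1 in R 4.3.3 on log2(FPKM + 0.5), two-sided, using the variance trend and no covariates. A gene entered if 3 or more libraries reached 1 FPKM. Adjustment was by Benjamini-Hochberg over all genes tested (threshold 0.05): 15803 genes with all 6 libraries, and 11308 protein-coding genes (GENCODE 29) without LIN28B KO library 3. Medians and counts of the 56 genes are descriptions, set beside those of all genes tested. The members and lists were chosen with earlier results of these data known, so none is independent support.

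Fragment equivalents were estimated from the width of the deposited bounds, as if it were counting error alone. They came out whole, within 0.01 at up to 50 fragments, for 1238 genes in all 6 libraries. They did not follow level between genes: KNTC1, at 115 FPKM in the controls, had 47.7 to 118 and KIF11, at 14.7 FPKM, had 643 to 1708. Low equivalents thus mark wide bounds and need not mean few reads. Like the bounds, they do not measure spread between libraries, and PCR copies of a molecule count as separate reads. The tests were checked on simulated data. At a simulated log2 fold of -0.5, 32% of genes were recovered with all 6 libraries (15803 genes) and 46% with 5 (11308 genes). At -1 these shares were 68% and 88%. The simulated noise was drawn from the spread of the 3 control libraries and was alike in all libraries. No simulated library stood apart as LIN28B KO library 3 does, so recovery in these data may be lower. Genes were named by a rule: LIN28B, in each role the 3 smallest p with all 6 libraries and the highest fold change, each member whose groups overlap, and up to 2 called genes per list of other pathway genes. The rule picks 33 members; others were named after their values were seen, to account for all 56. Other pseudocounts, filters, scalings, left-out libraries, library weights and a replicate block were tried. Motifs and let-7 sites were searched with Python 3.11.15.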

Additional observations from a re-analysis of the deposited data

How the results depend on the processing

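With all 6 libraries, 0 of the 56 genes were called by limma as deposited (45 at an unadjusted p under 0.05). Quantile normalization gave 2 calls, cyclic loess 6, library weights 9 and protein-coding genes only 3, where 0.0823%, 0.342%, 0.652% and 0.157% of all genes tested were called lower. Leaving out 1 library in turn gave 0 to 3 calls, with 3 only without LIN28B KO library 3 (0.267% of all genes), and medians from -0.61 to -0.47. With 5 libraries, the 22 calls became 14 with quantile normalization, 14 with cyclic loess, 1 with no filter on low values, 3 with all genes and not only protein-coding ones, 2 with cyclic loess on all genes (chosen after seeing the data) and 0 without the variance trend (46 at an unadjusted p under 0.05). The shares of all genes called lower were, in that order, 1.18%, 1.17%, 0.105%, 0.267%, 0.235% and 0.0707%, against 3.02%. All of these calls were among the 22; a mean FPKM of at least 5 gave 28, which held all 22, where 4.27% of all genes were called lower. Leaving out 1 of the 5 libraries gave 0 calls each time, also over all genes tested (38 to 44 of the 56 at an unadjusted p under 0.05, against 1294 to 1564 of all genes that were lower), and medians from -0.48 to -0.42. The median was -0.43 with cyclic loess. In each of these fits none of the 56 was called higher. The causes were not tested, apart from the numbers of genes and samples that the alternatives themselves change.

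Replicate numbers did not pair the libraries: deviations of same-numbered libraries from their group means correlated at -0.021, 0.044 and -0.033. With a replicate block, limma called 0 of the 56 genes with all 6 libraries and 0 with 5, where 2 and 0 of all genes were called lower. At an unadjusted p under 0.05, 44 and 47 of the 56 were lower, against 6.33% and 12.5% of all genes.

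LIN28B and the 33 members picked by the naming rule were followed under each alternative. They kept their sign except in 2 cases: SGOL2 with all 6 libraries became 0.0081 with cyclic loess, and ECT2 with 5 libraries ran from -0.1439 to 0.0012 as each library was left out, the latter without control replicate 1. Of 1054 values of these genes under alternatives, 838 kept their direction and side of the threshold, 191 lost and 23 gained a call. None of the 33 members was called with all 6 libraries as deposited, so their values there had no call to lose. The 838 therefore do not measure how often a call was kept.

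CENPE had wide deposited bounds, at 11.1 to 48.1 fragment equivalents per library. Such low equivalents need not mean few reads, so a limit set by depth is not shown. In the 5-library fit 46% of genes simulated at a log2 fold of -0.5 were recovered, so a gene that did not pass is not shown to be equal.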
